A study of Mus musculus with 4 samples.

Results

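Macrophages exposed to interleukin 4 (IL-4) can fuse into multinucleated giant cells, and some of the genes that serve this fusion are shared with osteoclasts, the bone-resorbing cells of the same lineage. Here 10 such genes, Dcstamp, Ocstamp, Atp6v0d2, Acp5, Ctsk, Mmp9, Nfatc1, Oscar, Cdh1 and Tnfrsf11a, were followed among the 15114 genes with an Entrez number that were listed in any library. They were chosen by name, for their known roles, with earlier results of these data known. The study examined PERK, the endoplasmic reticulum stress kinase encoded by Eif2ak3, in mouse bone marrow-derived macrophages of strain C57BL/6. The knockout group (LysMcre x Eif2ak3 fl/fl, here KO) and the wild-type group (Eif2ak3 fl/fl, without the Cre, here WT) each had 2 RNA sequencing libraries, so both groups carry the floxed allele. LysMcre drives recombination from the lysozyme locus of myeloid cells. All 4 cultures had grown for 7 days with 20 ng/mL of the growth factor M-CSF and had then received 20 ng/mL of IL-4 for 24 h. Neither group had been given RANKL, the osteoclast-inducing cytokine, as far as the protocol states, and unstimulated cells were not analysed here.

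In the osteoclast lineage, RANKL binds its receptor RANK and, together with receptors that signal through ITAM adaptors, switches on the transcription factor NFATc1. NFATc1 in turn drives genes of fusion and of bone resorption. IL-4 signals through STAT6 and induces E-cadherin and the fusion protein DC-STAMP in macrophages, while it is known to restrain RANKL-driven osteoclast formation. Values are FPKM, a measure scaled for feature length and library size, so that levels can be compared between genes.

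The 4 libraries carried the markers of macrophages. Adgre1, which encodes F4/80, measured 273 to 364 FPKM over 3 libraries and 241 FPKM in WT replicate 1. All 10 macrophage markers were listed in every library. Fcgr1 among them was uneven, at 34.0 and 25.5 FPKM in KO, against 7.27 FPKM in WT replicate 1 and 33.6 FPKM in WT replicate 2. The targeted gene Eif2ak3 measured 6.55 and 4.88 FPKM in KO, against 10.9 and 8.88 FPKM in WT, so transcript remained in the libraries labelled KO, and a value per gene does not tell which exons it came from. The share of total FPKM that fell on genes with an Entrez number was 54.8% and 41.1% in the KO libraries, against 58.95% and 57.6% in the WT libraries. From the steps between low values of unnumbered features, the sequencing depth relative to WT replicate 1 was estimated at 0.801 and 0.607 in KO and 0.901 in WT replicate 2. The tables hold no counts, so absolute depth is unknown. The median tested gene had a log2 change of -0.14, KO minus WT, in the deposited values, and log2 changes below are relative to it unless stated otherwise.

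Promoter sequence from RefSeq (GRCm38.p6) was at hand for 4 of the 10 genes. The stretches just before the annotated start are shown for 3 of them whose levels differed widely, RANK (Tnfrsf11a) at about 22 FPKM, cathepsin K (Ctsk) at about 2 FPKM and OSCAR at or near 0. Capitals mark matches, on either strand, to AP-1 (TGANTCA), NFAT (GGAAA), PU.1 (GAGGAA), STAT6 (TTCNNNNGAA) or the E-box read by MITF (CATGTG). The NFAT and PU.1 letters can overlap.
Tnfrsf11a promoter (chr1:105780473-105780672, plus strand): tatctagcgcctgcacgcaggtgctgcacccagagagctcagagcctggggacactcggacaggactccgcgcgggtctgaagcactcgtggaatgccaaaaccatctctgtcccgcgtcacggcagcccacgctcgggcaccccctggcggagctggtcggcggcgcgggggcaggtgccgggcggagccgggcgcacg
Ctsk promoter (chr3:95498960-95499209, plus strand): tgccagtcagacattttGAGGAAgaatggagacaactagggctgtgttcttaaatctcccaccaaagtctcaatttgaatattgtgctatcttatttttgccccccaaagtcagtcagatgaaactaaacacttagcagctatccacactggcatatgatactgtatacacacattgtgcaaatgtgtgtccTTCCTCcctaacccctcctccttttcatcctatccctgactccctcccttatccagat
Oscar promoter (chr7:3616158-3616407, minus strand): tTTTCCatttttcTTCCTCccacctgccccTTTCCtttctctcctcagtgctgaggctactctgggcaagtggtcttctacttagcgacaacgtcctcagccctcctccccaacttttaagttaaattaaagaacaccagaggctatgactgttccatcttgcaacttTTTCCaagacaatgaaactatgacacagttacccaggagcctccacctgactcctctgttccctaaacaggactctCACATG
The RANK stretch of 200 bases held no match and was rich in G and C, at 71.0% against a median of 51.5% over the first 200 bases of 32851 promoter windows. It held 22 CG pairs against a median of 4. The Ctsk stretch of 250 bases held 2 PU.1 matches and no CG pair, and the Oscar stretch held 3 NFAT matches, 1 PU.1 match and 1 E-box. Such letters are common. Over windows of 250 bases, 55.6% held an NFAT match, 23.3% a PU.1 match and 12.3% the E-box, and the median number of CG pairs was 6. None of the stretches shown held a STAT6 match, which 5.85% of windows of 250 bases held. Acp5, the other gene with promoter sequence, is not shown. Its window at chr9:22130599-22130848 held 1 STAT6 match, 2 NFAT matches and 1 E-box, and its other windows 1 NFAT match each. Matches describe letters in a window and were not related to the levels by any test.

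The 10 genes covered a very wide range of levels in IL-4-stimulated macrophages. Atp6v0d2 was among the most abundant transcripts of these cells, ranking 168 among the listed Entrez-numbered genes by its mean. Oscar was listed in 1 library only, at 0.02 FPKM. In order of the mean over all libraries, Atp6v0d2 (232 FPKM) was followed by Tnfrsf11a (22.6 FPKM), Ocstamp (14.2 FPKM), Dcstamp (10.2 FPKM), Nfatc1 (9.14 FPKM) and Cdh1 (7.99 FPKM). Acp5 (5.86 FPKM), Mmp9 (5.51 FPKM), Ctsk (1.95 FPKM) and Oscar came last. Between neighbours in this order, the ranges over the 4 libraries stood apart for Atp6v0d2 and Tnfrsf11a, for Mmp9 and Ctsk, and for Ctsk and Oscar. They stood only just apart for Tnfrsf11a, with a lowest value of 20.2 FPKM, and Ocstamp, with a highest value of 20.04 FPKM. The ranges of all other neighbours overlapped, although Ocstamp exceeded Dcstamp within each of the 4 libraries.

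**Figure D1:**
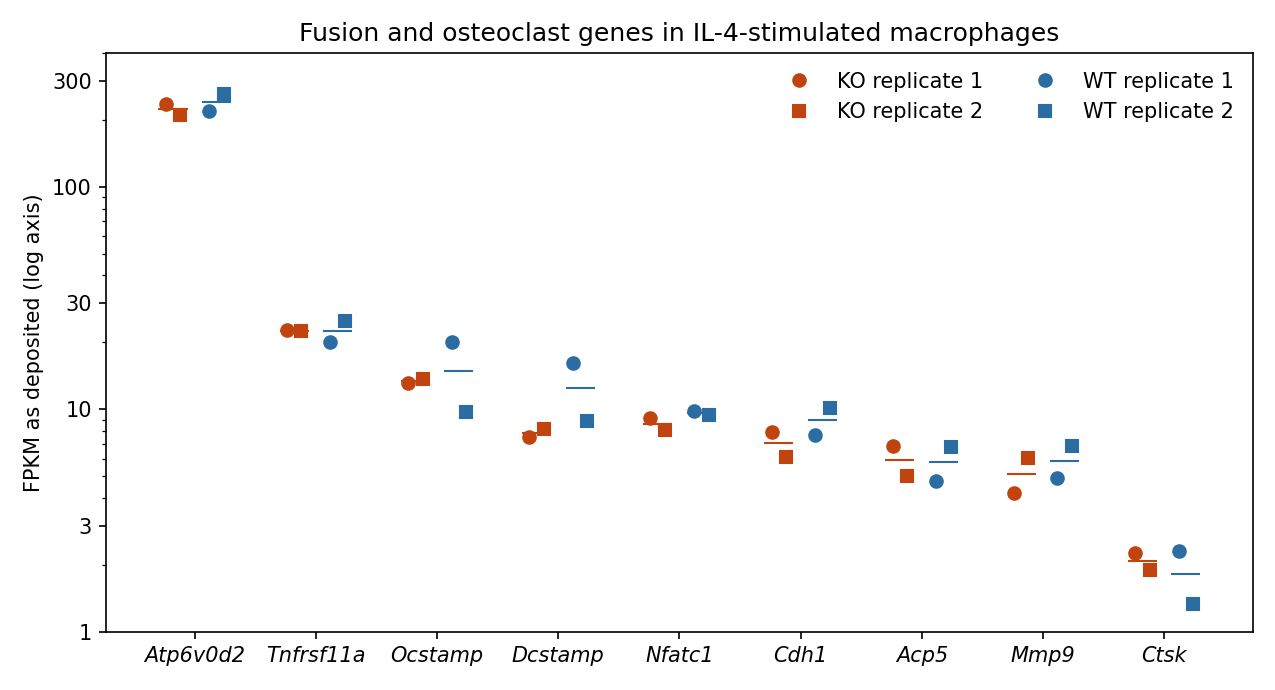
FPKM as deposited (log axis) of the 9 genes that were tested, with each point a library, KO in red left of WT in blue, and short lines at the group means of n = 2. Atp6v0d2 sits at 210.4 to 262 FPKM, about an order of magnitude above the next gene, and only Dcstamp and Nfatc1 have both KO points below both WT points.

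No gene of the 10 passed the test between genotypes. Of the 9 that reached a mean of 1 FPKM and were tested, limma called 0 at an adjusted p of 0.05, against 0.0211% of all 9501 tested genes, and 0 had an unadjusted p under 0.05, against 4.22% of all (0 against 3.15% after median-ratio scaling). The lowest adjusted p among them was 0.776, and the lowest unadjusted p was 0.071, for Dcstamp. Both KO libraries lay below both WT libraries for 2 of the 9, against 35.6% of all tested genes, and above for 0, against 4.14% of all. After median-ratio scaling of the libraries these counts were 0 and 0, against 14.1% and 15.0% of all tested genes. The median change of the 9 was +0.04, with 5 above and 4 below the median gene. With 2 libraries per group the smallest two-sided p of an exact permutation test is 0.333, so single genes could be judged only by the model across genes. That model did not call the targeted gene Eif2ak3 itself (limma adjusted p = 0.776). Nor did it call the lysozyme gene Lyz2, at 253 and 201 FPKM in KO, against 627 and 699 FPKM in WT (limma adjusted p = 0.413). A member that was not called is therefore not shown to be unchanged. Nothing in the labels says whether the 2 libraries of a genotype came from separate animals or cultures, and in bulk RNA fewer cells of a type cannot be told apart from less RNA per cell.

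**Figure D2:**
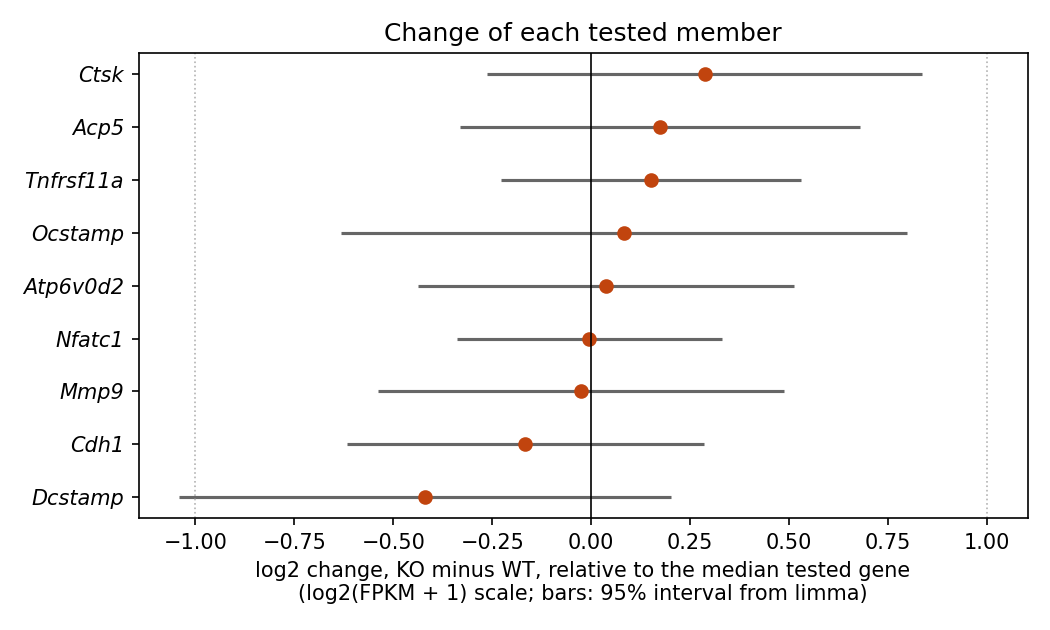
Log2 change, KO minus WT, of each tested gene relative to the median tested gene, on the log2(FPKM + 1) scale, with bars for the 95% interval from limma and dotted lines at a 2-fold difference. Every interval spans 0, and only that of Dcstamp, from -1.04 to 0.20, reaches past a 2-fold difference.

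Among the receptors, RANK was listed at over 20 FPKM in every library and OSCAR at or near 0. Tnfrsf11a (Entrez 21934, chromosome 1, 105780673 to 105849444 on GRCm38) encodes RANK, the receptor for RANKL. It measured 22.8 and 22.4 FPKM in KO, against 20.2 and 24.9 FPKM in WT. The KO libraries were nearly equal to each other and lay inside the WT range. The log2 change was +0.15 (SE 0.16, 95% interval -0.23 to 0.53, limma adjusted p = 0.982). Oscar (Entrez 232790, chromosome 7, 3609813 to 3616157) encodes a collagen-binding receptor of osteoclasts that signals through the FcRγ chain. It was listed in neither KO library and at 0.02 and 0 FPKM in WT, so it was not tested. A gene without a row need not lack transcript. Rpl3, a ribosomal protein gene that every cell uses, had no row in either KO table, against 166.8 and 180.2 FPKM in WT, and Smdt1, a subunit of the mitochondrial calcium uniporter, likewise had none, against 49.05 and 55.9 FPKM. These 2 were the genes past the limma threshold. The adaptor genes of such receptors were abundant, with Fcer1g at 661 and 512 FPKM in KO, against 530 and 617 FPKM in WT. Tyrobp, the DAP12 adaptor, measured 484 and 560 FPKM in KO, against 504 and 791 FPKM in WT, and Trem2, a DAP12-coupled receptor that takes part in fusion, 251 and 279 FPKM against 249 and 396 FPKM. The KO values of these 3 genes overlapped those of WT.

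Nfatc1, which encodes the transcription factor that directs osteoclast differentiation, was the steadiest of the 9 tested genes over the 4 libraries. Nfatc1 (Entrez 18018, chromosome 18, 80606205 to 80713071) measured 9.17 and 8.10 FPKM in KO, against 9.80 and 9.47 FPKM in WT. Both KO libraries lay below both WT libraries as deposited, but the groups overlapped after median-ratio scaling, at 9.086 and 9.092 in KO, against 9.34 and 8.94 in WT. The log2 change was -0.0045 (SE 0.14, 95% interval -0.34 to 0.33, limma adjusted p = 0.776), so that the interval runs from 0.791 to 1.26 as a fold. The family members Nfatc2, at 8.85 and 8.31 FPKM in KO against 9.38 and 8.79 FPKM in WT, and Nfatc3, at 11.7 and 9.59 FPKM against 12.04 and 11.5 FPKM, stood at similar levels. These relatives were chosen after their values were seen.

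For the fusion genes Dcstamp and Ocstamp, the WT libraries differed widely from each other. Dcstamp (Entrez 75766, chromosome 15, 39745930 to 39760938) encodes DC-STAMP, a multi-pass membrane protein needed for fusion of osteoclasts and of macrophage giant cells. It measured 7.49 and 8.20 FPKM in KO, against 16.2 and 8.85 FPKM in WT. WT replicate 1 stood far above the other 3 libraries, which lay close together. The log2 change was -0.42 (SE 0.26, 95% interval -1.04 to 0.20, limma adjusted p = 0.776), or -0.56 as deposited. As deposited, it was -0.16 without WT replicate 1, close to the median tested gene of that fit at -0.14. Without WT replicate 2 it was -0.96, where the median tested gene was at -0.13. Each of these 2 fits leaves WT with 1 library, which is assumed to vary as the KO pair does. After median-ratio scaling the groups overlapped, at 7.42 and 9.20 in KO, against 15.5 and 8.35 in WT.

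Ocstamp (Entrez 74614, chromosome 2, 165395450 to 165400394) encodes OC-STAMP, a related membrane protein that also serves fusion. It measured 13.15 and 13.75 FPKM in KO, against 20.04 and 9.74 FPKM in WT. The KO libraries agreed closely and lay between the WT libraries, of which WT replicate 1 was again the higher. The log2 change was +0.08 (SE 0.30, 95% interval -0.63 to 0.80, limma adjusted p = 0.950), and -0.06 as deposited. Without WT replicate 1 the change as deposited was +0.43, and without WT replicate 2 it was -0.54. After median-ratio scaling, WT replicate 1 was the highest library for 25.7% of all tested genes. The fold between the highest and the lowest library was 2.17 for Dcstamp and 2.06 for Ocstamp, against 1.21 for Nfatc1.

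Atp6v0d2 (Entrez 242341, chromosome 4, 19876838 to 19922566) encodes the d2 subunit of the vacuolar proton pump, an isoform of osteoclasts and macrophages that is needed for osteoclast fusion. It measured 236 and 210.4 FPKM in KO, against 219 and 262 FPKM in WT. The groups overlapped, with a log2 change of +0.04 (SE 0.20, 95% interval -0.44 to 0.51, limma adjusted p = 0.859). The change as deposited was -0.10. The d1 isoform gene Atp6v0d1, present in most cells, measured 82.0 and 59.5 FPKM in KO, against 78.0 and 75.6 FPKM in WT, so d2 stood above d1 in all 4 libraries.

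Cdh1 (Entrez 12550, chromosome 8, 106603350 to 106670247) encodes E-cadherin, an adhesion protein of epithelia that IL-4 induces in macrophages. It measured 7.94 and 6.12 FPKM in KO, against 7.71 and 10.2 FPKM in WT. WT replicate 2 was the highest and KO replicate 2 the lowest, and the groups overlapped. The log2 change was -0.17 (SE 0.19, 95% interval -0.62 to 0.28, limma adjusted p = 0.776). Other epithelial genes were at or near 0. Of 7 epithelial markers, 5 were listed in no library, among them Krt8 and Krt18, and their summed level was 0 and 0.03 FPKM in KO, against 0.02 and 0.07 FPKM in WT.

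Acp5, Ctsk and Mmp9, the enzymes of bone resorption among the 10, stood low within this set. By mean, Acp5 stood above 59.6% of the listed Entrez-numbered genes, Mmp9 above 58.4% and Ctsk above 43.0%. Acp5 (Entrez 11433, chromosome 9, 22126727 to 22135746) encodes tartrate-resistant acid phosphatase, the enzyme used to stain osteoclasts. It measured 6.85 and 5.0 FPKM in KO, against 4.76 and 6.81 FPKM in WT. The ranges coincided almost exactly, with a log2 change of +0.17 (SE 0.21, 95% interval -0.33 to 0.68, limma adjusted p = 0.958). The noncoding gene 6530413G14Rik shares exon bases with Acp5 on the opposite strand in GENCODE M21. The libraries were stranded, but whether reads were counted by strand is not given in the sources used here. Reads of Acp5 and 6530413G14Rik may therefore not have been kept apart. The other 9 genes share no exon bases with another annotated gene.

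Ctsk (Entrez 13038, chromosome 3, 95499210 to 95509387) encodes cathepsin K, the collagen-degrading protease of osteoclasts. It measured 2.26 and 1.90 FPKM in KO, against 2.31 and 1.33 FPKM in WT. WT replicate 2 was the lowest and the other 3 libraries were close, with a log2 change of +0.29 (SE 0.23, 95% interval -0.26 to 0.84, limma adjusted p = 0.833). Cathepsins of general macrophage lysosomes were far higher, such as Ctsb at 1256 and 1073 FPKM in KO, against 1138 and 1497 FPKM in WT. Mmp9 (Entrez 17395, chromosome 2, 164940326 to 164955850), a gelatinase made by osteoclasts, macrophages and neutrophils, measured 4.21 and 6.08 FPKM in KO, against 4.92 and 6.83 FPKM in WT. In each genotype replicate 2 was the higher, and the log2 change was -0.02 (SE 0.21, 95% interval -0.54 to 0.49, limma adjusted p = 0.804). Neutrophil markers summed to 3.45 and 3.29 FPKM in KO, against 3.44 and 3.99 FPKM in WT. Most of the sum came from S100a8, at 0.70 and 1.48 FPKM in KO, against 1.01 and 1.75 FPKM in WT, and from S100a9. S100a9 measured 1.93 and 0.80 FPKM in KO, against 1.22 and 1.26 FPKM in WT. Ly6g was at 0 in 3 of the 4 libraries and Elane was listed in none. Any part of neutrophils in the Mmp9 values was not tested.

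**Figure D3:**
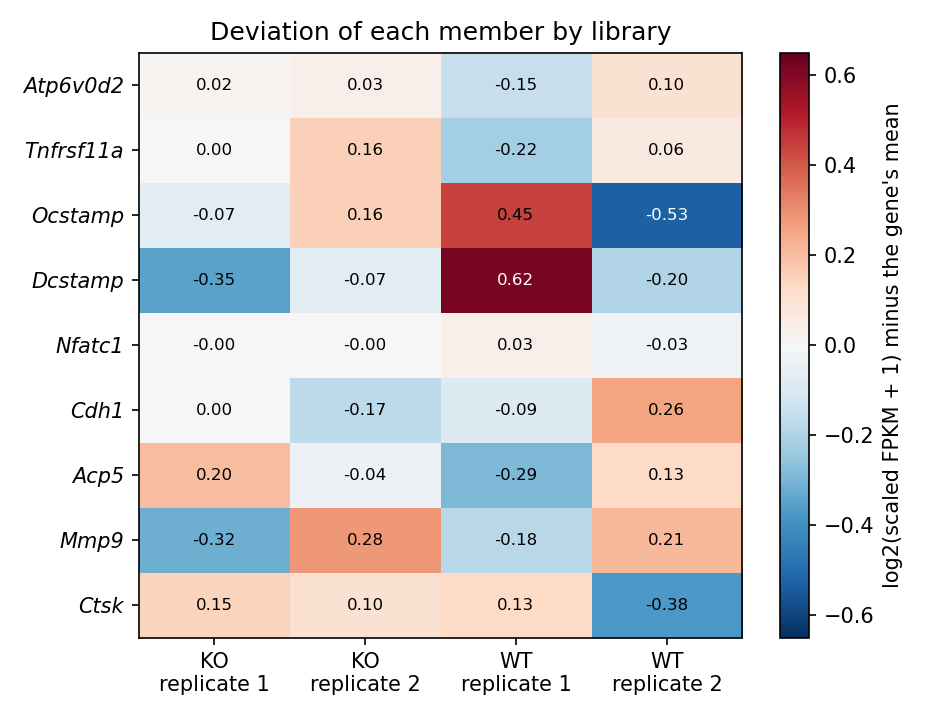
Deviation of each tested gene from its own mean, as log2(FPKM + 1) after median-ratio scaling, with KO libraries in the left columns and WT libraries in the right. Dcstamp and Ocstamp stand highest in WT replicate 1, at 0.62 and 0.45, and Nfatc1 stays within 0.03 of its mean in every library.

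The members' profiles over the libraries were compared by the distance between centred log2 profiles after scaling. The smallest distance between 2 tested members was that of Atp6v0d2 and Tnfrsf11a, at 0.148, where Tnfrsf11a ranked 965 in closeness to Atp6v0d2 among all tested genes, and Atp6v0d2 426 in closeness to Tnfrsf11a. By rank, Ctsk stood nearest, at 233 in closeness to Ocstamp (distance 0.42), while Ocstamp ranked 2554 for Ctsk. Dcstamp and Ocstamp were 0.52 apart, with Ocstamp at rank 525 for Dcstamp and Dcstamp at rank 628 for Ocstamp. The tested genes nearest to Dcstamp were the histone genes H2bc13 (distance 0.069) and H4c8 (0.091) and the formin gene Fmnl2 (0.090). H2bc13 measured 17.2 and 18.4 FPKM in KO, against 35.7 and 21.2 FPKM in WT, with WT replicate 1 high as for Dcstamp. Nearest to Ocstamp were Mia3 (0.064), Mmp19 (0.115) and the calcium channel gene Cacna1a (0.149). Mmp19, a metalloproteinase gene, measured 9.83 and 10.35 FPKM in KO, against 14.8 and 7.93 FPKM in WT. Nearest to Mmp9 were Sec24b (0.075), the neutrophil marker S100a8 (0.087) and Tbc1d8 (0.098). For Atp6v0d2 the nearest were Dab2, Nbr1 and Clptm1, but 313 genes lay within 0.1, as 850 did for Nfatc1 and 3 for Dcstamp. These likenesses rest on 4 libraries and describe those libraries.

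Of 94 other genes of the pathway, in 7 lists, 81 reached a mean of 1 FPKM and were tested. Limma called 0 of the 81 at an adjusted p of 0.05, and at an unadjusted p under 0.05 1 was higher (Src) and 1 lower (Dock1), against 0.705% and 3.52% of all tested genes. As deposited, 31 of the 81 had both KO libraries below both WT libraries and 2 had both above, against 35.6% and 4.14% of all tested genes. After median-ratio scaling 13 were below and 12 above, against 14.1% and 15.0% of all.

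Of 19 genes that serve fusion, most of the cell surface or cytoskeleton, 18 were tested, with a median change of -0.05. The list also held Stat6 and the chemokine gene Ccl2. Dock1, an activator of the GTPase Rac, measured 8.26 and 6.14 FPKM in KO, against 9.28 and 11.9 FPKM in WT, a log2 change of -0.36 (SE 0.19, 95% interval -0.81 to 0.09, limma adjusted p = 0.776). After median-ratio scaling it was no longer under an unadjusted p of 0.05. Itgb1, an integrin subunit, Rac1 and Itgb2 had log2 changes of -0.21, -0.14 and -0.16. Both KO libraries lay below both WT libraries as deposited, as for 35.6% of all tested genes. After median-ratio scaling Itgb1 and Rac1 stayed below, as 14.1% of all tested genes did, and Itgb2 overlapped. Stat6, the transcription factor of IL-4 signalling, measured 54.7 and 54.2 FPKM in KO, against 61.7 and 64.0 FPKM in WT, a log2 change of -0.06.

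Of RANK and M-CSF signalling genes, 18 of 20 were tested, with a median of -0.01. The ligand gene Tnfsf11 (RANKL) was listed in 1 library, at 0.06 FPKM in KO replicate 2, and its decoy receptor gene Tnfrsf11b reached at most 0.04 FPKM. Csf1r, the M-CSF receptor gene, measured 203 and 178 FPKM in KO, against 188 and 234 FPKM in WT, a log2 change of +0.0024. Csf1, which encodes M-CSF, measured 6.43 and 3.60 FPKM in KO, against 2.97 and 3.91 FPKM in WT, a log2 change of +0.55 (SE 0.25, 95% interval -0.06 to 1.15, limma adjusted p = 0.776). Its KO values differed more from each other than its WT values did. Sqstm1, Map3k7 and Tab1, of signalling below RANK, had log2 changes of -0.21, -0.23 and -0.09.

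ITAM and calcium signalling genes, which feed NFATc1, had a median of -0.06 over 13 tested of 14. The calcineurin genes Ppp3cb, Ppp3ca and Ppp3r1 had log2 changes of -0.26, -0.13 and -0.06. Rcan1, a calcineurin regulator and known NFAT target, measured 5.12 and 4.5 FPKM in KO, against 5.73 and 6.33 FPKM in WT, a log2 change of -0.14. Osteoclast transcription factors had a median of -0.02 over 12 tested of 14. Mitf, which activates Acp5, Ctsk and Oscar in osteoclasts, measured 23.2 and 24.5 FPKM in KO, against 25.3 and 29.6 FPKM in WT. Tfeb, Ikzf1 and Jun had log2 changes of -0.14, -0.03 and -0.04.

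The list of repressors of the osteoclast programme held abundant transcripts. Its median change, with Irf4 counted, was +0.12 over 4 tested of 5. Irf8, a repressor of Nfatc1, measured 34.1 and 35.9 FPKM in KO, against 32.8 and 40.6 FPKM in WT. Its KO values lay inside the WT range. Irf4 was placed in this list but is known to promote Nfatc1 and osteoclast differentiation. It measured 10.7 and 9.60 FPKM in KO, against 17.4 and 8.65 FPKM in WT, with WT replicate 1 high as for Dcstamp. Bcl6 and Id2 had log2 changes of +0.19 and +0.16.

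Of 15 genes of the resorption machinery, 11 were tested, with a median of +0.06. Src, a kinase that osteoclasts need to form their resorbing border, measured 1.93 and 1.71 FPKM in KO, against 0.12 and 0.95 FPKM in WT. Both KO libraries stood above both WT libraries, which differed widely from each other, and the log2 change was +1.07 (SE 0.30, 95% interval 0.34 to 1.80, limma adjusted p = 0.776). Tcirg1, the a3 subunit of the proton pump of osteoclasts, measured 263 and 257 FPKM in KO, against 246 and 204 FPKM in WT, a log2 change of +0.35. Ostm1 and Itgav had log2 changes of -0.14 and +0.39. Itgb3, a subunit of the osteoclast vitronectin receptor, measured 25.8 and 30.4 FPKM in KO, against 25.8 and 45.8 FPKM in WT. Calcr, the calcitonin receptor gene that marks mature osteoclasts, was listed in 1 library, at 0.02 FPKM in KO replicate 2. Car2, carbonic anhydrase 2, stayed between 1.38 and 2.07 FPKM.

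A list of E-cadherin partners and other cadherin genes had a median of -0.06 over 5 tested of 7. The other cadherin genes were Cdh2, Cdh5 and Pcdh7, of which only Pcdh7 was tested. The catenin genes Ctnna1 and Ctnnb1 had log2 changes of -0.18 each, with both KO libraries below both WT libraries as deposited and after scaling. Ctnnd1, also a catenin gene, had a log2 change of +0.05. Its KO libraries lay below both WT libraries as deposited and above both after scaling. Of all tested genes, 35.6% lay below as deposited, and 14.1% lay below and 15.0% above after scaling. Pcdh7, a protocadherin gene, measured 71.6 and 74.3 FPKM in KO, against 71.5 and 73.3 FPKM in WT.

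**Figure D4:**
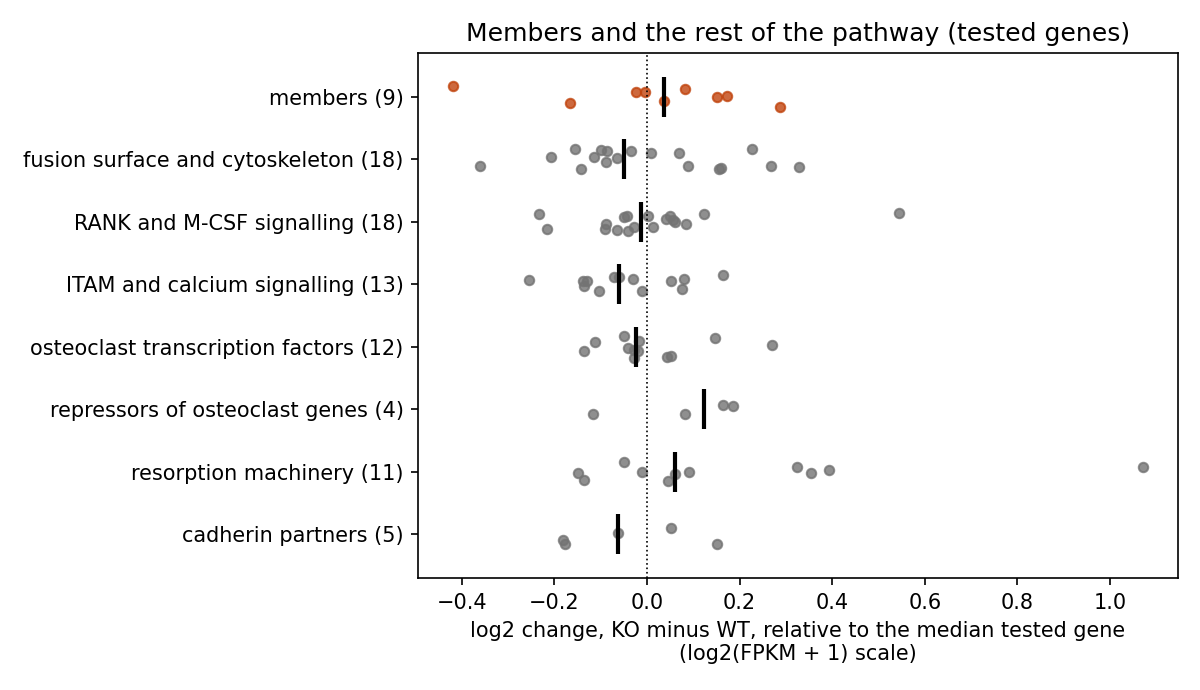
Log2 change, KO minus WT, of each tested gene relative to the median tested gene, on the log2(FPKM + 1) scale, for the members in red and the 7 pathway lists in grey, with black bars at the list medians and the number of tested genes in brackets. The medians lie between -0.06 and 0.12, and the point farthest to the right is Src at 1.07.

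Markers of other marrow cells were low. The summed level of 9 osteoblast and stromal markers was 0.93 and 1.02 FPKM in KO, against 1.00 and 0.87 FPKM in WT, with Alpl in no library. Those of 9 dendritic cell markers were 6.97 and 2.58 FPKM in KO, against 6.88 and 3.77 FPKM in WT, and those of 9 B and T cell markers 3.02 and 1.62 FPKM against 1.62 and 2.01 FPKM. Mast cell and basophil markers reached at most 0.11 FPKM. Of 7 erythroid and megakaryocyte markers, Pf4, which macrophages also express, measured 614 and 311 FPKM in KO, against 370.3 and 452 FPKM in WT, and 4 were listed in no library.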

How the data were processed

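Per the labels' protocols, ribosomal RNA was removed from total RNA and 4 stranded, randomly primed libraries were sequenced. The authors deposited FPKM, rounded to 2 decimals, with 1 table per library. The tools in the submitters' processing notes are HISAT, StringTie, Bowtie2 and RSEM, on mm10, without versions or roles. The annotation is not given in the sources used here. An absent row was read as 0, which need not mean that no transcript was present, since Rpl3, a gene that every cell uses, had no row in the KO tables. Of 15114 Entrez numbers, 15094 matched a symbol in RefSeq (GRCm38.p6). The other 76534 features were not named.

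The KO group was compared with the WT group by limma 3.58.1 in R 4.3.3, on log2(FPKM + 1) as deposited, for the 9501 genes that had an Entrez number and a mean over the libraries of 1 FPKM or more. The model was two-sided, without a block, with a prior variance that follows mean expression and Benjamini-Hochberg adjustment over all tested genes. Fold changes on this scale understate those of low genes, and p-values refer to the deposited values with their overall shift. Levels after scaling are FPKM divided by median-ratio factors. The 10 members and the pathway and marker lists were chosen with earlier results of these data known. All 10 members were named. From each pathway list the 4 tested genes with the smallest p and a few of fixed role were named, and for each member the 3 nearest profiles were found. One gene of a list is not reported here. Not all named genes are described, and a few other list members and relatives were named after their values were seen. On simulated data with the same 9501 genes the procedure recovered 2.51% of the 1.5-fold changes, 44.0% of the 2-fold changes and 95.1% of the 4-fold changes, in genes drawn from the more highly expressed genes. Recovery was therefore not measured for low genes such as Ctsk, and these rates need not hold for them. The simulated noise followed limma's own fitted variance, and the changes were set on the log2(FPKM + 1) scale. No overall shift and no library that stood apart was simulated, so the rates may be higher than on the real libraries. Alternatives covered scaling, pseudocount, filter, features tested, prior variance, a replicate block and leaving out each library.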

Additional observations from a re-analysis of the deposited data

How the results depend on the processing

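Over 12 alternatives, limma called 0 of the 9 tested members and 0 of the 81 tested pathway genes wherever they entered the fit (a minimum mean of 5 FPKM left out low genes, Ctsk among them), and the lowest adjusted p of a member was 0.155 (Dcstamp without WT replicate 2). The number of all tested genes past the threshold was 2, ranged from 2 to 43 when 1 library was left out (43 without WT replicate 2), and was 14 with the replicate number as a block. Same-numbered libraries deviated together only weakly (correlation 0.078 over 9501 genes) and the labels name nothing shared, so the block is not read as pairing. Dcstamp had an unadjusted limma p of 0.016 with it (adjusted p = 0.545). Log2 changes in what follows are as deposited. Atp6v0d2 (-0.10) turned to 0.05 under median-ratio and under upper-quartile scaling (0.0499 and 0.0454), as did Ocstamp (-0.06) to 0.0855 and 0.081. Leaving out 1 library gave these ranges: Acp5 -0.19 to 0.25, Atp6v0d2 -0.23 to 0.026, Ctsk -0.11 to 0.40, Mmp9 -0.39 to 0.056, Ocstamp -0.54 to 0.43 and Tnfrsf11a -0.14 to 0.16. Dcstamp, Cdh1 and Nfatc1 stayed negative under all 12, but so did the median tested gene. Against that median some turned. Nfatc1 (-0.122) stood above it (-0.1385) without WT replicate 1, for example, and Cdh1 (-0.127) above it (-0.131) without WT replicate 2. The cause of each turn was not tested. At an unadjusted p under 0.05, 67 genes were higher and 334 lower as deposited, against 178 and 121 after median-ratio scaling. Depth limits the low genes most, such as Ctsk and Src, and no interval for counting error could be given.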

Other observations

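Mmp12 and Mmp13 were higher in FPKM than Mmp9 in these macrophages. Mmp12, macrophage elastase, measured 327 and 177 FPKM in KO, against 563 and 212 FPKM in WT, and Mmp13, a collagenase, 57.8 and 23.2 FPKM against 49.2 and 24.9 FPKM. In each genotype replicate 1 was the higher for both genes, where replicate 2 was the higher for Mmp9. The fourth NFAT gene expressed, Nfat5, which responds to osmotic stress, measured 11.7 and 10.95 FPKM in KO, against 10 and 9.66 FPKM in WT, a log2 change of +0.33 relative to the median gene (SE 0.13, limma adjusted p = 0.776). These genes were chosen after their values were seen.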
